A study of Mus musculus with 13 samples.

Results

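AMPK subunits and autophagy genes were examined in liver RNaseq of alcohol-fed mice. The 10 genes were taken by symbol from a fixed list: the AMPK subunits Prkaa1, Prkaa2, Prkab1 and Prkag1, and the autophagy genes Ulk1, Becn1, Map1lc3a, Map1lc3b, Gabarapl1 and Sqstm1. They were 10 of 53392 genes in the count table, of which 14317 had enough counts to be tested, and all 10 passed that count filter. The series compared ways of controlling for induction of a ceramidase transgene, by genotype or by diet. Livers came from 13 female mice, 8 to 14 weeks of age, in 3 groups. All were homozygous for Albumin-Cre and for rtTA behind a loxP-stop-loxP cassette at Rosa26, so that the Dox-dependent transactivator was made in hepatocytes, and all took 28% of calories as ethanol (Etoh) for 4 weeks. The first group, ASAH- Etoh-Dox, lacked the TRE-ASAH1 transgene and received doxycycline (Dox; n = 4). The ASAH+ Etoh-Dox group carried the transgene and received Dox (n = 5). The ASAH+ Etoh group carried the transgene without Dox (n = 4). Total counts per liver ran from 17819486 to 35358711.

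The sample titles of the ASAH+ mice give the opposite Dox treatment from their description and induction labels, and groups here follow the description. Asah1, which encodes acid ceramidase, was read first as a check. Its level was 12800 ± 2800 CPM (counts scaled to library size; SD, n = 5) in ASAH+ Etoh-Dox livers, 49.4 ± 6.78 (SD, n = 4) in ASAH- Etoh-Dox livers and 46.5 ± 1.70 (SD, n = 4) in ASAH+ Etoh livers. Thus the 5 livers described as Dox-treated ASAH+ carried the induced gene, and the other 8 did not. The hepatocyte markers were present in every liver, led by Alb at 90300 CPM, while markers of adipocytes and skeletal muscle summed to under 1 CPM. Exocrine pancreas markers, led by Cela1 at 7.56 CPM, summed to means of 8.35 CPM in ASAH- Etoh-Dox, 8.36 in ASAH+ Etoh-Dox and 6.89 in ASAH+ Etoh livers.

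AMPK is a kinase complex of an alpha catalytic, a beta scaffold and a gamma nucleotide-binding subunit that senses a fall in cellular energy. It promotes autophagy in part by phosphorylating ULK1, the kinase that starts autophagosome formation, and Beclin 1 belongs to the lipid kinase complex that acts next. Proteins of the ATG8 family, which include LC3 and GABARAP proteins, are attached to the growing membrane, and p62, encoded by Sqstm1, links cargo to them. In liver, autophagy also delivers lipid droplets to lysosomes. These genes are controlled at the protein level as well, and RNA levels do not measure kinase activity or autophagic flux.

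Prkaa1 and Prkaa2 encode the alternative catalytic subunits of AMPK. Prkaa1 (ENSMUSG00000050697.9; GRCm38 chr15:5143861-5181899, plus strand) measured 13.97, 10.52, 12.65 and 11.94 CPM in ASAH- Etoh-Dox livers, 14.99, 12.39, 11.97, 14.32 and 16.48 CPM in ASAH+ Etoh-Dox livers and 13.83, 14.93, 14.99 and 16.42 CPM in ASAH+ Etoh livers. Its lowest values lay in the ASAH- group, and each pair of groups overlapped. Prkaa2 (ENSMUSG00000028518.8; chr4:105029874-105109890, minus strand) measured 59.9, 66.0, 50.9 and 90.4 CPM in ASAH- Etoh-Dox livers, 84.4, 79.5, 66.7, 70.3 and 70.2 CPM in ASAH+ Etoh-Dox livers and 70.0, 85.7, 70.3 and 67.3 CPM in ASAH+ Etoh livers. The ASAH- livers held both its lowest and its highest value.

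The beta subunit gene Prkab1 (ENSMUSG00000029513.14; chr5:116013586-116024508, minus strand) ranged from 16.4 to 23.5 CPM over the 13 livers. The gamma subunit gene Prkag1 (ENSMUSG00000067713.7; chr15:98812797-98831521, minus strand) ranged from 24.5 to 30.5 CPM. Prkag1 was among the steadier genes of the table. Its SD within groups was 0.087 on the log2 scale, against a median of 0.24 over all genes tested.

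Ulk1 (ENSMUSG00000029512.11; chr5:110784488-110810097, minus strand) varied most within groups among the 10 genes, with an SD of 0.29 on the log2 scale. It ran from 62.9 to 113 CPM, and ASAH- Etoh-Dox livers held 113, 78.3, 112 and 69.8 CPM. Becn1, the Beclin 1 gene (ENSMUSG00000035086.13; chr11:101285952-101302286, minus strand), varied least, with an SD of 0.080, and ran from 40.8 to 50.6 CPM. Sqstm1 (ENSMUSG00000015837.15; chr11:50199366-50210827, minus strand) ran from 247 to 434 CPM, and both extremes were ASAH+ Etoh-Dox livers.

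Map1lc3a, which encodes the LC3A protein (ENSMUSG00000027602.9; chr2:155276297-155278073, plus strand), measured 16.30, 16.18, 17.83 and 14.80 CPM in ASAH- Etoh-Dox livers, 18.11, 14.27, 17.50, 17.81 and 22.38 CPM in ASAH+ Etoh-Dox livers and 20.09, 18.39, 20.65 and 24.11 CPM in ASAH+ Etoh livers. The 4 ASAH+ Etoh livers all lay above the 4 ASAH- Etoh-Dox livers, and the ASAH+ Etoh-Dox livers overlapped both. Map1lc3b, the LC3B gene (ENSMUSG00000031812.16; chr8:121590361-121598760, plus strand), measured 103, 124, 130 and 141 CPM in ASAH- Etoh-Dox livers, 127, 132, 96.6, 89.3 and 112 CPM in ASAH+ Etoh-Dox livers and 104, 111, 129 and 104 CPM in ASAH+ Etoh livers. All 3 groups overlapped. Gabarapl1 (ENSMUSG00000030161.8; chr6:129533160-129542346, plus strand) measured 301, 482, 467 and 414 CPM in ASAH- Etoh-Dox livers, 559, 452, 341, 331 and 435 CPM in ASAH+ Etoh-Dox livers and 392, 422, 371 and 355 CPM in ASAH+ Etoh livers. Its highest liver held 1.86 times the level of its lowest, and every group overlapped the others.

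**Figure D1:**
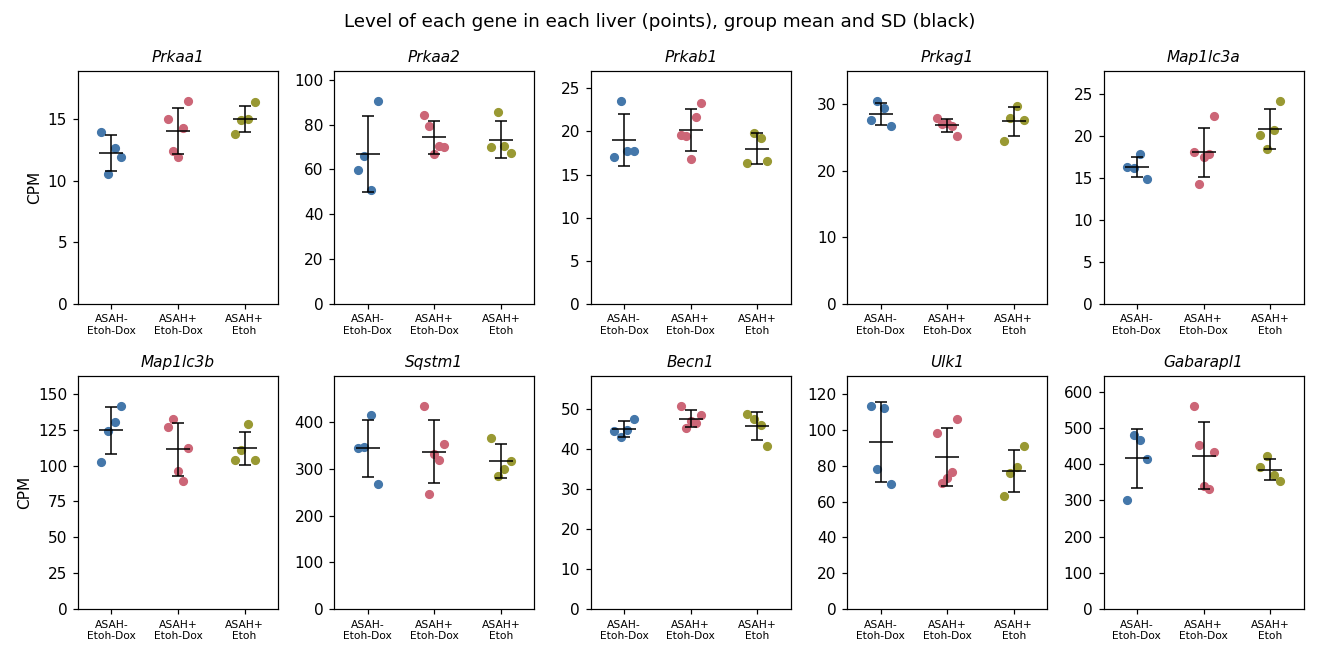
CPM of the 10 genes (y axis, from 0) in each of the 13 livers, by group (x axis), where points are mice and black marks are the group mean and SD. Groups overlap for each gene, except that the 4 ASAH+ Etoh livers lie above the 4 ASAH- Etoh-Dox livers for Map1lc3a.

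Some reads of these genes could be assigned elsewhere. The pseudogene Gm6055 shares 91.1% of its 31-base words with Map1lc3b and had a median of 318 counts. Reads of either may be assigned to the other, and that count does not bound the error in the Map1lc3b level. Other genes overlap them on the opposite strand. The libraries kept strand, but whether Salmon used it is not given in the sources used here, so reads of such partners may not be told apart. Sqstm1 shares 580 exon bases with Mrnip, which had a median of 97 counts, and Map1lc3b shares 58 with Zcchc14, which had a median of 740. Becn1 shares 3104 exon bases with Cntd1, which had a median of 2 counts, Gabarapl1 shares 570 with 1700101I11Rik, at 3 counts, and Prkag1 shares 950 with B130046B21Rik, at 0.

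Levels were compared between genes as CPM per kilobase of exon. Gabarapl1 was highest at 203 CPM per kilobase, followed by Sqstm1 at 99.3, and the ranges of these genes did not overlap each other or the gene below. Map1lc3a at 15.5, Map1lc3b at 15.4, Ulk1 at 13.1 and Prkag1 at 12.7 CPM per kilobase came next, and the range of each overlapped that of its neighbor. Prkaa2 at 8.99, Becn1 at 6.53 and Prkab1 at 6.24 CPM per kilobase were lower, and again neighbors overlapped. Prkaa1 was lowest at 2.96 CPM per kilobase and was below Prkab1 in 13 of 13 livers. The middle of this order depended on the length used, here all exons. With the longest transcript Map1lc3b was at 27.9 CPM per kilobase, above Prkag1 at 16.7, Map1lc3a at 16.5 and Ulk1 at 16.3. The lower order also turned, with Becn1 at 10.6 and Prkab1 at 9.16 CPM per kilobase ahead of Prkaa2 at 8.99, though Prkab1 was above Prkaa2 in only 6 of 13 livers.

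Within families, 1 gene supplied most of the RNA per length. Prkaa2 made up 74.99 ± 3.58% (SD, n = 13) of the alpha subunit RNA, and its share was 75.4% in ASAH- Etoh-Dox, 75.5% in ASAH+ Etoh-Dox and 73.9% in ASAH+ Etoh livers. Prkab1 made up 93.3 ± 1.51% (SD, n = 13) of beta subunit RNA, with Prkab2 as the remainder. Prkag1 made up 70.7 ± 2.54% (SD, n = 13) of gamma subunit RNA and Prkag2 29.3 ± 2.54% (SD, n = 13), while Prkag3 made up 0.0275%. In the ATG8 family, Gabarapl1 held 61.1 ± 3.30% and Gabarap 24.8 ± 2.24% (SD, n = 13). Map1lc3a held 4.76 ± 0.971%, Map1lc3b 4.66 ± 0.510% and Gabarapl2 4.77 ± 0.497% (SD, n = 13), and with the longest transcript as length Map1lc3b held 6.96%, Gabarapl1 55.6% and, in its own family, Prkag1 62.0%.

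**Figure D2:**
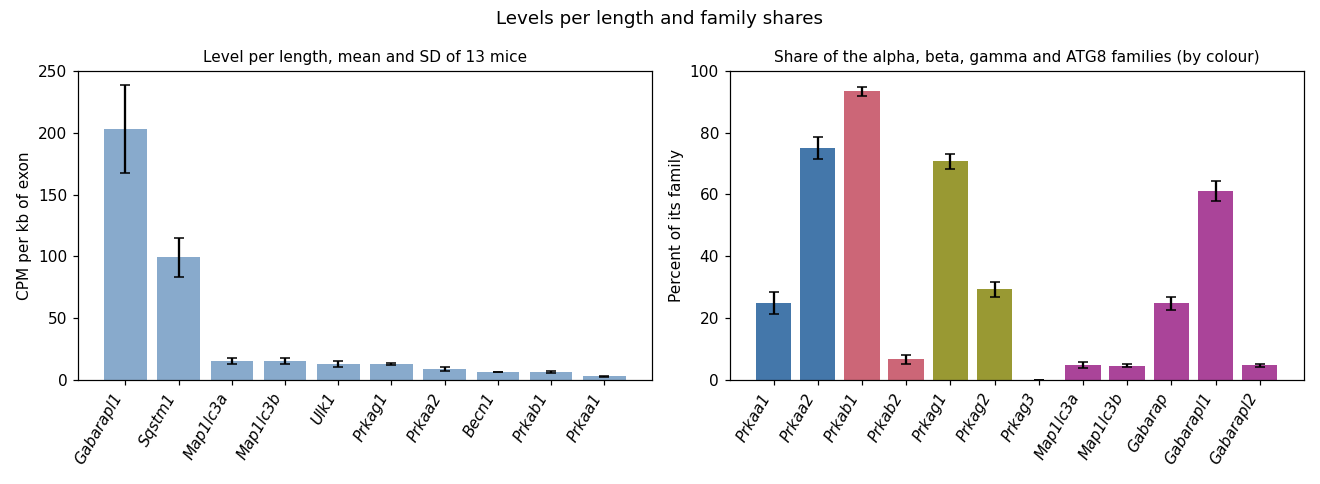
Left, CPM per kilobase of exon for the 10 genes, and right, each gene's percent of the per-length RNA of its family, with families set apart by color; bars are means and error bars SD over 13 livers. Gabarapl1 at 203 CPM per kilobase stands above the others, and Prkaa2, Prkab1, Prkag1 and Gabarapl1 hold the largest share of their families.

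The comparison of ASAH+ with ASAH- mice, both fed Etoh-Dox, addressed transgene induction by genotype. By edgeR's quasi-likelihood test 0 of 10 passed a Benjamini-Hochberg adjusted p of 0.1 over all genes, where 2 of 14317 genes (0.014%) did, and 0 of 10 had an unadjusted p under 0.05, where 409 genes (2.86%) did. DESeq2 also called 0 of the 10, where on all mice it called 12 of the 15808 genes it gave an adjusted p (0.0759%) and on the 2 groups 11 of 19040 (0.0578%), as did limma-voom, where it called 2 of 14317 (0.014%). The groups did not overlap for 0 of 10 genes, against 127 of all genes tested (0.887%). The median log2 fold change of the 10 genes was 0.053, and that of all genes was -0.0023. The widest interval among the 10 on the log2 scale was that of Ulk1, which was 0.91-fold with a 95% interval of 0.706 to 1.17. Prkaa1 was 1.14-fold, with an interval of 0.968 to 1.35. Becn1 had the narrowest interval on the log2 scale, at 1.06-fold with an interval of 0.954 to 1.17.

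The comparison of Etoh-Dox with Etoh in ASAH+ mice addressed induction by diet, and Dox itself cannot be told apart from the transgene here. It shares the ASAH+ Etoh-Dox livers with the comparison by genotype. By edgeR 0 of 10 genes passed the adjusted threshold, where 2 of 14317 (0.014%) did, and 0 of 10 had an unadjusted p under 0.05, where 1044 genes (7.29%) did. DESeq2 on the 2 groups called 0 of the 10, where it called 114 of 13584 genes with an adjusted p (0.839%). On all mice it called 98 of 1982 genes (4.94%), and 0 of the 5 members with an adjusted p, since it gave none for the other 5. Limma-voom called 0 of the 10, where it called 2 of 14317 genes (0.014%). The groups did not overlap for 0 of the 10 genes, against 369 genes tested (2.58%). The median log2 fold change was 0.037 for the 10 genes and 0.013 for all genes. Map1lc3a had the lowest estimate, -0.21 ± 0.12 (SE), with an edgeR adjusted p of 0.726. Prkab1 had the highest, 0.16 ± 0.12 (SE), with an edgeR adjusted p of 0.794.

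The controls themselves, ASAH- on Etoh-Dox and ASAH+ on Etoh, differ in both the transgene and Dox, and these cannot be told apart. By edgeR 0 of the 10 genes passed the adjusted threshold, where 2 of 14317 (0.014%) did. DESeq2 called 0 of the 10, where on all mice it called 149 of 8625 genes with an adjusted p (1.73%) and on the 2 groups 168 of 10699 (1.57%), and limma-voom called 0 of the 10, where it called 1 of 14317 genes (0.00698%). An unadjusted p under 0.05 was found for 2 of 10 genes, where 1316 of all genes (9.19%) had one. Map1lc3a had a log2 fold change of -0.35 ± 0.13 (SE) and an edgeR adjusted p of 0.441, and was lower in 16 of 16 pairs of mice. Its exact two-sided permutation p was 0.0286, the smallest that 4 against 4 mice can give. It was the 1 gene of 10 whose groups did not overlap, where 787 of all genes (5.50%) did not. Prkaa1 had a log2 fold change of -0.29 ± 0.12 (SE) with an edgeR adjusted p of 0.488, and its exact two-sided permutation p was 0.0571. The median log2 fold change was 0.067 for the 10 genes and 0.017 for all genes.

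**Figure D3:**
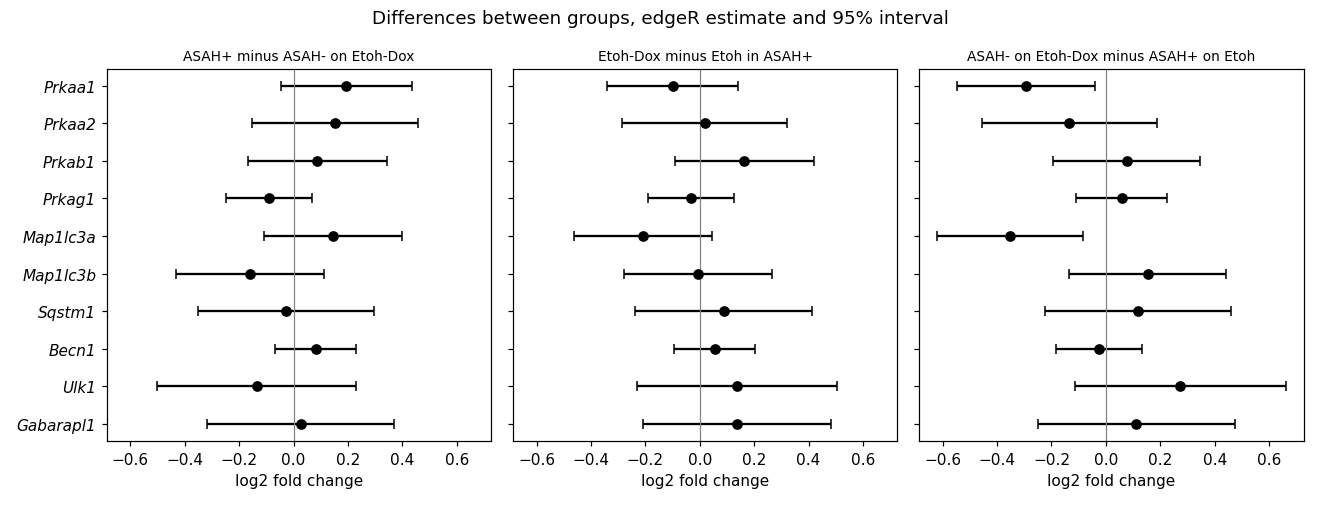
Log2 fold change (x axis) of each of the 10 genes in the 3 comparisons, where points are edgeR estimates and bars are 95% intervals. Intervals include 0 except for Map1lc3a at -0.35 and Prkaa1 at -0.29 between ASAH- Etoh-Dox and ASAH+ Etoh.

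Marker genes of cell types were read beside these comparisons, and by edgeR 0 of them passed the adjusted threshold in any of the 3. Red cell markers summed to 728 ± 703 CPM (SD, n = 4) in ASAH- Etoh-Dox, 560 ± 257 (SD, n = 5) in ASAH+ Etoh-Dox and 166 ± 24.1 (SD, n = 4) in ASAH+ Etoh livers, led by Hbb-bs, and 5 of 5 had counts in every liver. By liver they summed to 231, 752, 1710 and 215 CPM in the first group, 689, 241, 871, 355 and 646 CPM in the second and 135, 160, 175 and 192 CPM in the third. Kupffer cell markers, led by Cd5l, summed to 486 ± 188 CPM (SD, n = 4), 397 ± 120 (SD, n = 5) and 312 ± 32.7 (SD, n = 4) in the same order, and 7 of 7 had counts in every liver. Their sum was 760 CPM in ASAH- Etoh-Dox replicate 3 and 365 to 452 CPM in the other livers of that group. An unadjusted p under 0.05 was found for 5 of 5 red cell markers by diet and for 5 of 5 between the controls, and for 5 of 7 Kupffer cell markers between the controls, all higher with Dox. Kupffer cell markers were also higher for 7 of 7 genes by diet, 0 with such a p. By genotype 5 of 5 red cell and 7 of 7 Kupffer cell markers were lower in ASAH+ Etoh-Dox livers, 0 with such a p.

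Sinusoidal endothelial markers, led by Clec4g, summed to 165 ± 46.3 CPM (SD, n = 4), 129 ± 15.3 (SD, n = 5) and 169 ± 22.0 (SD, n = 4) in the same order of groups. By liver they summed to 144, 125, 231 and 158 CPM in the first group, 124, 131, 108, 150 and 133 CPM in the second and 191, 139, 172 and 176 CPM in the third. They were lower in ASAH+ Etoh-Dox livers for 6 of 6 genes by genotype, 4 with an unadjusted p under 0.05, and for 5 of 6 by diet, 5 with such a p. Stellate cell markers, led by Dcn, summed to 283 ± 29.3 CPM (SD, n = 4), 241 ± 25.1 (SD, n = 5) and 242 ± 32.3 (SD, n = 4). Of these, 6 of 6 were higher in ASAH- Etoh-Dox than in ASAH+ Etoh livers, 3 with an unadjusted p under 0.05, and 6 of 6 were lower by genotype, 1 with such a p. Lymphocyte markers, led by Ptprc, summed to 15.7 ± 4.32 CPM (SD, n = 4), 14.6 ± 4.61 (SD, n = 5) and 10.4 ± 1.07 (SD, n = 4). Of these, 5 of 5 were higher by diet, 1 with an unadjusted p under 0.05, and 5 of 5 were higher in the ASAH- than in the ASAH+ Etoh controls, 2 with such a p. Hepatocyte markers were lower for 6 of 6 genes by genotype, 2 with an unadjusted p under 0.05, and for 4 of 6 by diet, 2 with such a p, and were higher in the ASAH- than in the ASAH+ Etoh controls for 5 of 6, 1 with such a p. Cholangiocyte markers, led by Spp1, summed to 49.6 ± 20.1 CPM (SD, n = 4), 39.4 ± 6.29 (SD, n = 5) and 44.4 ± 5.69 (SD, n = 4), with 79.1 CPM in ASAH- Etoh-Dox replicate 1 and 31.5 to 51.9 CPM in the other 12 livers. Of these, 5 of 5 were lower by genotype and 5 of 5 were higher in the ASAH- than in the ASAH+ Etoh controls, 0 with an unadjusted p under 0.05. All sinusoidal, stellate, lymphocyte and cholangiocyte markers had counts in every liver. The part of these cell types, red and Kupffer cells included, in the values of the 10 genes was not tested, and in whole liver fewer cells of a type and less RNA per cell cannot be told apart.

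Other genes of the pathway, 129 tested of 134 listed, were read the same way. By edgeR 0 of 129 passed the adjusted threshold in any of the 3 comparisons. In the comparison by genotype 2 had an unadjusted p under 0.05 (1.55%), 1 higher and 1 lower, where 2.86% of all genes had one. These were Mlxipl, the ChREBP gene, at a log2 fold change of 0.36 ± 0.15 (SE), and Atg2a, whose protein moves lipid to the forming autophagosome, at -0.30 ± 0.11 (SE). In the comparison by diet 4 did (3.10%), 2 in each direction, where 7.29% of all genes did. These were Hdac5 at 0.58 ± 0.15 (SE), with an edgeR adjusted p of 0.473, Sesn3, a sestrin gene, at 0.23 ± 0.11 (SE), Cab39, a partner of the AMPK kinase LKB1, at -0.18 ± 0.063 (SE), and Lamp2, a lysosomal membrane protein gene, at -0.18 ± 0.077 (SE). Between the controls 5 did (3.88%), 1 higher and 4 lower, where 9.19% of all genes did. Cab39 was at -0.25 ± 0.067 (SE), with an edgeR adjusted p of 0.389, Epg5, which acts in autophagosome fusion, at -0.18 ± 0.069 (SE), Lamp2 at -0.20 ± 0.082 (SE) and Atg2b at -0.22 ± 0.097 (SE), while Hdac5 was at 0.41 ± 0.16 (SE).

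In the other lists no gene apart from members had an unadjusted edgeR p under 0.05. The gene with the smallest edgeR p over the 3 comparisons is given as not called. In the ULK1 complex this was Atg13 by diet, at 0.20 ± 0.099 (SE), for ATG8 conjugation Atg16l1 by diet, at -0.14 ± 0.071 (SE), and for receptors Ncoa4 by diet, at -0.17 ± 0.081 (SE). Exact two-sided permutation p by diet was 0.0476 for Atg13, 0.0397 for Atg16l1 and 0.0476 for Ncoa4, and 0.0238 for Prkab2. Among mTORC1 regulators it was Akt1s1 between the controls, at 0.33 ± 0.16 (SE), and for the Beclin 1 complexes Pik3c3 between the controls, at -0.15 ± 0.090 (SE). By genotype, it was Prkab2 among the other AMPK subunits, at 0.35 ± 0.19 (SE), Zkscan3, a repressor of autophagy genes, among regulators, at 0.29 ± 0.14 (SE), and Gabarapl2 in the ATG8 family, at -0.08 ± 0.086 (SE).

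Livers differed in the clock genes Dbp and Arntl more than groups did. Dbp and Arntl peak at opposite times of day in liver. Dbp ran from 4.95 to 111 CPM over the 13 livers, and Arntl from 0.829 to 17.3 CPM. Their log2 ratio ran from -1.64 to 6.78, and its high values rested on low Arntl levels. It averaged 3.36 ± 3.58 (SD, n = 4) in ASAH- Etoh-Dox, 2.93 ± 3.78 (SD, n = 5) in ASAH+ Etoh-Dox and 4.29 ± 1.91 (SD, n = 4) in ASAH+ Etoh livers. The ratio was fitted beside the group means, so that the slope describes mice within groups. By edgeR 3 of 10 genes passed the adjusted threshold, all higher with the ratio, where 1371 of 14317 genes (9.58%) passed and 693 (4.84%) passed in that direction.

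Gabarapl1 rose by 0.067 ± 0.015 (SE) log2 units per unit of log2 ratio, or 1.26-fold over 5 units, with an edgeR adjusted p of 0.0203. It passed in 13 of 13 fits that left out a mouse, with adjusted p from 0.00527 to 0.0993. Map1lc3b rose by 0.051 ± 0.013 (SE), or 1.19-fold over 5 units, with an edgeR adjusted p of 0.0286. It passed in 12 of 13 such fits, and without ASAH- Etoh-Dox replicate 1, a liver with a ratio of -0.955, its adjusted p was 0.116, the highest of a range that began at 0.0197. That liver also held the highest sum of cholangiocyte markers, 79.1 CPM, whose part in these slopes was not tested. Prkaa2 rose by 0.049 ± 0.016 (SE), with an edgeR adjusted p of 0.0890. This call was lost in 11 of 13 fits that left out a mouse, with adjusted p from 0.0741 to 0.185 over the 13, and it was also lost without group means, at an adjusted p of 0.104. Becn1, at 0.0083 ± 0.0098 (SE), and Prkag1, at 0.0046 ± 0.011 (SE), did not pass, nor did Ulk1, at -0.030 ± 0.024 (SE). The same held for Prkab1, at 0.026 ± 0.016 (SE), and Map1lc3a, at -0.024 ± 0.016 (SE). Prkaa1, at -0.014 ± 0.016 (SE), and Sqstm1, at -0.012 ± 0.022 (SE), did not pass either.

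**Figure D4:**
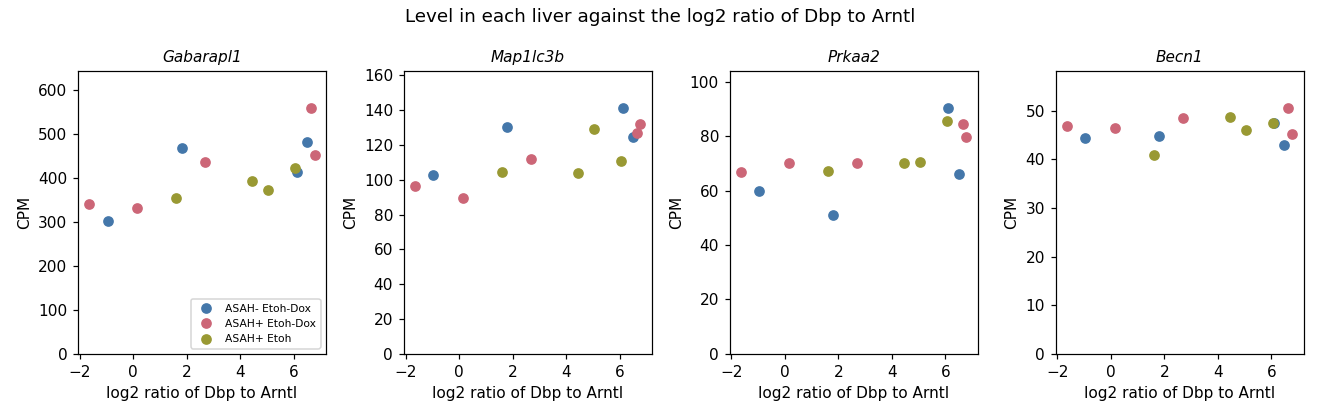
CPM of Gabarapl1, Map1lc3b, Prkaa2 and Becn1 (y axes, from 0) against the log2 ratio of Dbp to Arntl (x axis), where points are the 13 livers colored by group. Gabarapl1 is 340 CPM in the liver with the lowest ratio, -1.64, and 452 CPM in the liver with the highest, 6.78, while Becn1 stays between 40.8 and 50.6 CPM.

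Of the other pathway genes, 22 of 129 (17.1%) passed with the ratio, 16 higher and 6 lower, where 9.58% of all genes passed and 4.84% passed as higher. Without ASAH- Etoh-Dox replicate 1 this became 12 of 130 (9.23%), 11 higher and 1 lower, where 632 of 14498 genes (4.36%) passed. Without ASAH+ Etoh-Dox replicate 4 it became 16 of 129 (12.4%), where 900 of 14226 genes (6.33%) passed.

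The steepest slopes of these genes were those of Fnip2, whose protein binds AMPK, which rose by 0.15 ± 0.025 (SE) per unit, and the liver glycogen synthase gene Gys2, which rose by 0.14 ± 0.020 (SE) with an edgeR adjusted p of 0.00106. Among AMPK partners Fnip1 also rose, by 0.079 ± 0.014 (SE), as did the phosphatase gene Ppm1a, by 0.049 ± 0.012 (SE), and Stradb, by 0.037 ± 0.012 (SE), while Strada fell, with a slope of -0.082 ± 0.0265 (SE). Among AMPK substrates the hormone-sensitive lipase gene Lipe rose by 0.11 ± 0.021 (SE) and Pfkfb1 by 0.0615 ± 0.018 (SE), and Ppargc1a fell, with a slope of -0.088 ± 0.024 (SE).

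In the lipophagy list 1 of 10 genes tested passed as higher and 2 as lower, where 9.58% of all genes passed and 4.84% passed as higher. Pnpla2, the adipose triglyceride lipase gene, rose by 0.11 ± 0.018 (SE) with an edgeR adjusted p of 0.00358, while the lysosomal acid lipase gene Lipa fell, with a slope of -0.042 ± 0.012 (SE), and Ehbp1 fell, with a slope of -0.064 ± 0.019 (SE). The receptor genes Bnip3, Calcoco1 and Optn rose, by 0.11 ± 0.021 (SE), 0.066 ± 0.013 (SE) and 0.065 ± 0.015 (SE). Rb1cc1 of the ULK1 complex rose by 0.053 ± 0.012 (SE), Uvrag of the Beclin 1 complexes by 0.040 ± 0.013 (SE) and Atg4d, whose protein processes ATG8 proteins, by 0.072 ± 0.016 (SE). Rragc and Tfeb, regulators of mTORC1 and of lysosomal genes, rose by 0.052 ± 0.0090 (SE) and 0.076 ± 0.021 (SE). Tbc1d7, of the TSC complex, and Vmp1, which acts at the forming autophagosome, fell, with slopes of -0.069 ± 0.019 (SE) and -0.045 ± 0.011 (SE).

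Atg4d, Bnip3, Calcoco1, Fnip1, Fnip2, Gys2, Lipe, Pnpla2, Rb1cc1 and Rragc passed in 13 of 13 fits that left out a mouse. Of the genes that fell, Vmp1 passed in 12 of 13 such fits, Ppargc1a in 11, Tbc1d7 in 10, Lipa in 9, Ehbp1 in 6 and Strada in 2. Optn and Ppm1a passed in 12 of 13, Tfeb in 10, Pfkfb1 in 7, Uvrag in 3 and Stradb in 2. Gabarap and Gabarapl2 did not pass on all mice, at 0.0092 ± 0.011 (SE) and 0.019 ± 0.011 (SE). Among the cell type markers tested, the cholangiocyte gene Sox9 alone passed, lower with the ratio, and was named after its value was seen.

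The sequence upstream of the 3 genes that passed with the ratio is shown because they moved in the same direction. RefSeq promoter windows on GRCm38.p6 were found for 8 of 10 genes. The E-box CACGTG, bound by clock activators, and the D-box TTATGNAA, bound by DBP, were searched on both strands of each 300-base window. Neither was found in any of the 8 windows, where 7.15% and 3.38% of 32851 windows held them, and this says only that these letters are not in the windows. Each stretch ends before the first annotated start, at chr6:129532942-129533159 (plus strand), chr8:121590188-121590360 (plus strand) and chr4:105109899-105110148 (minus strand). With no match, no letters are in capitals.
Gabarapl1: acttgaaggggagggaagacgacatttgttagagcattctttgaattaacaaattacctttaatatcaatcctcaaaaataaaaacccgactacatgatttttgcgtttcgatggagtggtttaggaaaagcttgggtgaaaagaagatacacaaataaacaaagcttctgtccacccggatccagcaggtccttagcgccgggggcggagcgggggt
Map1lc3b: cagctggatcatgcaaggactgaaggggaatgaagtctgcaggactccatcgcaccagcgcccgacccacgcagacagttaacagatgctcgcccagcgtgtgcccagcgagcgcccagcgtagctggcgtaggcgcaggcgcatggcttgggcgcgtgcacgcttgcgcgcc
Prkaa2: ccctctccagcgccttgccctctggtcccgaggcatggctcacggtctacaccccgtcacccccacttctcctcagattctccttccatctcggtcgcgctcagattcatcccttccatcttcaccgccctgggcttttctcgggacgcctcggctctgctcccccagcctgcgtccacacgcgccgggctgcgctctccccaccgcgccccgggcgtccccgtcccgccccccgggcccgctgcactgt

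The genes varied together only in part. Over 45 pairs of the 10 genes the median Pearson r of log2 CPM over 13 livers was 0.099. The highest was 0.773, between Map1lc3a and Prkaa1 (Spearman rho 0.83), followed by 0.692 between Gabarapl1 and Map1lc3b (rho 0.681). The lowest was -0.529, between Ulk1 and Prkaa2. Group means were not removed from these values. Map1lc3a and Prkaa1 were both lower in ASAH- Etoh-Dox than in ASAH+ Etoh livers, at log2 fold changes of -0.35 and -0.29. Their r thus includes differences between groups as well as between livers of a group. Among all genes tested, Map1lc3b was most like Pnpla2, with r = 0.920, rho = 0.885 and r = 0.903 without the 2 livers farthest from the Map1lc3b median, and Coa6, with r = 0.905. Gabarapl1 was most like Aldoa, with r = 0.923, rho = 0.896 and r = 0.861 without 2 livers, and Maff, with r = 0.903. Prkaa2 was most like Stk38l, with r = 0.969, rho = 0.912 and r = 0.950 without 2 livers, and Fam208a, with r = 0.953. These genes were the highest of all tested, so the values are descriptions.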

How the data were processed

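Per the labels, liver RNA was made into strand-specific libraries, and the submitters' processing notes name Salmon and GRCm38.p6. The authors deposited estimated counts per gene, all whole numbers, which were used as deposited. Gene IDs were matched to GENCODE symbols for 53355 of 53392 genes. Counts were filtered with filterByExpr, scaled by TMM and tested with edgeR 4.0.16 in R 4.3.3, with robust dispersion, in 1 fit of 13 mice with 3 group means. A gene was called at a Benjamini-Hochberg adjusted p under 0.1. CPM were TMM-scaled, and log2 CPM used a prior count of 2. The clock fit added the log2 ratio of Dbp to Arntl. Exact permutation tests used mean log2 CPM. Each of the 10 genes had at least 273 counts per liver. The comparison by genotype, with edgeR, DESeq2 and limma-voom, and the edgeR fit of the ratio were tested on simulated data. Alternatives were DESeq2 1.42.0, limma-voom (limma 3.58.1), other scaling and filters, a covariate, and leaving out each mouse.

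The 10 genes and the gene lists were chosen with earlier results of these data known, and the 2 motifs after the ratio results were seen. Genes named were the 10, Asah1 and Sod1, their family genes, and the genes most like a member. In each pathway list the genes past the threshold, or with an unadjusted edgeR p under 0.05, were also named. Otherwise the gene with the smallest edgeR p over the 3 comparisons was named. The rule first written took the smallest p in each comparison, which named Sesn3 by genotype but not by diet. It was changed to the rule above after the values were seen. Sod1 was 846 ± 81.9 CPM (SD, n = 5) in ASAH+ Etoh-Dox livers, 526 ± 53.4 CPM (SD, n = 4) in ASAH- Etoh-Dox livers and 417 ± 22.9 CPM (SD, n = 4) in ASAH+ Etoh livers. Of the listed symbols, 1 was not found. Pairs of livers of a group had a chi-square per degree of freedom of at least 17.3 over 22 pairs. This sets separate mice against counting noise alone, so it only describes their spread.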

Additional observations from a re-analysis of the deposited data

Results flagged for a closer look

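Of 30 groups of values, 10 genes in 3 groups, 2 held a liver far from the rest of its group, and chance gives about 1 in 20. Prkaa2 was 85.7 CPM in ASAH+ Etoh replicate 2, where the other 3 livers lay between 67.3 and 70.3 CPM. Prkab1 was 23.5 CPM in ASAH- Etoh-Dox replicate 2, where the other 3 livers lay between 17.0 and 17.7 CPM.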

How the results depend on the processing

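Under 13 alternatives and 13 fits that left out a mouse, 0 of the 10 genes were called in each of the 3 comparisons. The median log2 fold change ran from -0.018 to 0.097 by genotype, -0.037 to 0.070 by diet and 0.0098 to 0.087 between controls. The stricter threshold of 0.05 leaves values as they are, and of 750 values of single genes under the other alternatives 747 moved by less than 1 SE, 3 moved further, 17 changed sign and 0 became called. The nearest to a call was Map1lc3a between controls, with an adjusted p of 0.126 by DESeq2 on the groups compared, 0.191 by DESeq2 on all mice and 0.441 by edgeR, and its highest under an alternative was 0.751. The number of all genes called was 2, 2 and 2 by edgeR, 12, 98 and 149 by DESeq2 on all mice and 11, 114 and 168 by DESeq2 on the groups compared. On data simulated for the comparison by genotype, false calls made up more of DESeq2's calls than the threshold allows and less of edgeR's. Those data were drawn with edgeR's own dispersion estimates, for genes that passed its filter, so they cannot decide between the tools. The comparisons by diet and between controls were not simulated. The part of false calls in the numbers above was not tested. The number of the 10 genes that passed with the Dbp to Arntl ratio was 3, was 2 without group means, and ran from 1 to 3 when a mouse was left out. It was 1 without ASAH- Etoh-Dox replicate 1, where 632 genes in all passed in place of 1371. Of the other pathway genes 22 passed, where 9.58% of all genes did, 23 without group means, where 9.28% did, and 12 to 23 when a mouse was left out, where 4.36% to 11.3% did.

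Same-numbered mice of different groups had a mean correlation of -0.0462 (12 pairs, from -0.265 to 0.19), and others 0.0126 (44 pairs). These values cannot show whether replicate numbers mark pairs. The paper describes pair-feeding and littermates of both genotypes, but the labels used here give no pairs or litters. With a replicate block 0 of 10 genes were called in each comparison, and 1, 2 and 0 of all genes were. With 4 or 5 mice a group, the widest 95% interval of the 10 genes on the log2 scale, that of Ulk1 between controls, ran from 0.924 to 1.58-fold.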
